A study of Mus musculus with 6 samples.

Results

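The report covers 10 genes of the Wnt pathway in mouse biliary epithelial cells, the lining of the bile ducts. They were chosen by symbol as 3 ligand genes that epithelia express (Wnt7a, Wnt7b and Wnt9a), 3 regulators of Wnt receptors (Lgr4, Rnf43 and Znrf3) and 4 genes commonly read as targets of the canonical pathway (Axin2, Tcf7, Sp5 and Ccnd1). All 10 were found among the 32061 genes of the deposited count table, and all 10 passed the filter on low counts. Messenger RNA had been sequenced from 3 samples labelled as competent for primary cilia, without 4OHT, and 3 samples labelled as depleted of primary cilia, with 4OHT. The abbreviation 4OHT usually stands for 4-hydroxytamoxifen, a drug that activates Cre recombinases fused to an oestrogen receptor domain. In both groups the ducts had been picked by hand from enzyme-digested mouse liver, grown in gel as organoids for 4 to 5 passages and moved to a flat culture on collagen. Sample columns named WT were taken as competent and those named KO as depleted. The deleted gene, the Cre driver, the dose and duration of 4OHT, and the strain and age of the mice are not given in the labels. The drug and the loss of cilia coincide in every sample and cannot be told apart.

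Wnt proteins are secreted, lipid-modified signals that bind Frizzled receptors and the coreceptors LRP5 and LRP6. In the canonical branch this binding stops a cytoplasmic complex, built on axin and APC, from marking beta-catenin for destruction, and beta-catenin then enters the nucleus and works with DNA-binding factors of the TCF/LEF family. Several targets of the pathway, among them Axin2, Rnf43 and Znrf3, encode proteins that dampen it again. In the liver, Wnt signals are best known for setting the zones of the lobule and for driving growth after injury, and R-spondin, which binds LGR receptors, is a usual ingredient of liver organoid media.

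The 10 genes moved in both directions. The readout genes Axin2, Tcf7 and Sp5 were each about 2-fold lower in the depleted cells, whereas Rnf43 and Znrf3, whose products remove Wnt receptors from the cell surface, were 1.93-fold and 1.92-fold higher. The LGR receptor gene Lgr4 rose 1.36-fold. The most abundant ligand gene, Wnt7b, fell 1.27-fold, Wnt7a rose 1.10-fold and Wnt9a did not pass the test. Ccnd1, which encodes cyclin D1, fell 1.22-fold. Thus 4 of the 10 genes rose and 5 fell at an adjusted p below 0.05 in edgeR's quasi-likelihood test over 13839 genes. These counts stand against a background of 34.9% of all tested genes called higher and 34.3% called lower, 69.2% in all, so that being called says little by itself about these 10. The 3 values of one group lay wholly above or below those of the other for 9 of the 10 genes, 4 higher and 5 lower, against 72.5% of tested genes, 36.4% higher and 36.1% lower. Larger changes were rarer in the background. Called lower by over 2-fold were 2.49% of tested genes and 3 of the 10. At the lower limit of 1.5-fold, 11.6% of tested genes were called lower, and the same 3 of the 10. Called higher by over 1.5-fold were 16.9% of tested genes and 2 of the 10, whose rises stayed below 2-fold. Sp5 lay close to the 2-fold limit (2.01-fold, and 1.98-fold with the transcript length trend described below removed). Because the 10 were chosen with earlier results of these data known, these shares cannot show that large changes gather among them. Whether replicates were independent cultures or mice is not in the labels. The p-values therefore reflect only sample-to-sample spread, which may be technical. In bulk RNA, fewer cells of a type and less RNA per cell cannot be told apart.

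Promoter sequence is shown for 3 of the genes, since Sp5 and Axin2 fell together and Lgr4 rose. Each line gives the 250 bases before the start site on the gene's own strand, from RefSeq (GRCm38.p6). Sp5 is at chr2:70474673-70474922, Axin2 at chr11:108920099-108920348 and Lgr4 at chr2:109917397-109917646, all on the plus strand. Capitals mark a match to a core sequence that TCF/LEF factors are known to bind, searched as CTTTGAT and CTTTGAA on both strands.
Sp5: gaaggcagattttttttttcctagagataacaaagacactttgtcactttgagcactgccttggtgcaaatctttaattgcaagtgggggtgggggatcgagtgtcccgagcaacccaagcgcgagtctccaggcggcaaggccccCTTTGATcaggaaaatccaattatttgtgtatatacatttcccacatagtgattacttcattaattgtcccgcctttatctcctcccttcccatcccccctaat
Axin2: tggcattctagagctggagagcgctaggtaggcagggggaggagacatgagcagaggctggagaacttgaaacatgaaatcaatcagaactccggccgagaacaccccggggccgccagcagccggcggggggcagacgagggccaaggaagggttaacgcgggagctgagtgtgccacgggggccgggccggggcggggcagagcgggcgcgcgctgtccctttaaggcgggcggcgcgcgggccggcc
Lgr4: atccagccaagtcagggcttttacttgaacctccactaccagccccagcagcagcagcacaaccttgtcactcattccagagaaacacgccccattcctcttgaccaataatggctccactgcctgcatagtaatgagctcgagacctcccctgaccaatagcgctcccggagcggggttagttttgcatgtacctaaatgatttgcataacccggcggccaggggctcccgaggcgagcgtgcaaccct
The Sp5 window held 1 match, CTTTGAT, whose first base lies 104 bases before the start site. Of 9 windows found for 7 of the 10 genes, it was the only one with a match. Among 32841 windows of the same length over all genes, 7.48% held at least 1. A match is a description of the letters, and no match says only that these letters are not in this window. No window was found for Wnt7b, Znrf3 and Ccnd1.

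Total counts ran from 26293486 to 36998935 per sample, depleted replicate 1 being the shallowest, and levels are given as CPM, each count relative to its library's total, with TMM scaling, which adjusts for composition. Relative to the library's total alone, without the TMM scaling, 3 counts, the limit taken for a gene at 0, were worth 0.0811 to 0.114 CPM, for counting error only. Since the labels name no deleted gene, Wdr35, an intraflagellar transport gene needed to build cilia, was looked at as a candidate only. Its level was 35.5, 32.5 and 31.9 CPM without and 29.3, 28.5 and 26.2 CPM with 4OHT, lower in all depleted samples (log2 change -0.25, adjusted p = 0.00245, and -0.44 with the length trend described below removed). Counts summed over a gene cannot show the loss of 1 exon, so they do not check the labels. The scaling matters for small changes. With TMM, 4832 genes were called higher and 4744 lower, while scaling by total counts alone gave 3836 higher and 5980 lower and moved the median log2 change of all genes from -0.006 to -0.13. Transcript length also moved with the groups: the median log2 change was -0.27 in the fifth of genes with the shortest transcripts and 0.25 in the fifth with the longest. Values with this trend removed are therefore given for the 10 genes and, for other named pathway genes, where the call changed or the log2 change moved by over 1.5 times.

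Markers of the labelled cell type were present. The summed level of 12 biliary epithelial markers was 17320 to 18306 CPM in competent and 14992 to 15958 CPM in depleted samples, with 2 markers higher and 6 lower. T cells are another common source of Tcf7 mRNA. The 10 T cell markers, among them the TCF/LEF gene Lef1, summed to 0.339 to 0.743 CPM in competent and 0.277 to 0.499 CPM in depleted samples. Of these, Cd3d, Cd3g, Cd8a and Cd2 were at 0 in all samples. Endothelial cells, a known source of Wnt ligands in liver, had markers that summed to 0.235 to 0.876 and 0.686 to 0.792 CPM over 8 genes. The 10 fibroblast and stellate cell markers summed to 2.14 to 2.49 and 3.65 to 4.67 CPM, with Col1a2 and Col3a1 at 0, while Col1a1, which made up most of the sum, rose from 1.38 ± 0.192 to 3.04 ± 0.37 CPM (log2 change 1.13, adjusted p = 7.37e-05). Of the 8 macrophage markers, which summed to 272.9 to 294.8 and 326 to 338.7 CPM, nearly all signal came from Cd14 (higher) and Csf1r (lower), Cd68 was also called higher, and Adgre1 had 1 count and Clec4f 1 count over all samples. Of the 10 hepatocyte markers, which summed to 214.8 to 237.4 and 240.03 to 247.7 CPM, Hnf4a took most and was called higher (log2 change 0.16, adjusted p = 0.00578). Ttr fell from 16.01 ± 2.76 to 11.3 ± 0.882 CPM and Fgb from 0.78 ± 0.178 to 0.229 ± 0.0771 CPM (adjusted p = 0.00135 and 0.000787), Alb did not pass (2.61 ± 0.718 and 2.57 ± 0.39 CPM; SD, n = 3) and Cyp3a11 was at 0. The part that any of these cell type differences play in the results was not tested.

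Ligands come first in the pathway. Wnt7b (ENSMUSG00000022382; GRCm38 chromosome 15, 85535437 to 85582473, minus strand), a ligand of epithelia that acts on neighbouring cells and on the epithelium itself, had 381, 370 and 366 CPM across competent samples and 293, 285 and 301 CPM in the depleted samples. Every depleted sample was below every competent one. The fall was 1.27-fold (log2 change -0.35, SE 0.042, adjusted p = 6.33e-06), and 1.38-fold with the length trend removed. Wnt7a (ENSMUSG00000030093; chromosome 6, 91363981 to 91411363, minus strand), its closest relative, had 156, 164 and 155 CPM across competent samples and 173, 171 and 177 CPM across depleted ones. The groups did not overlap, but the highest competent sample came close to the lowest depleted one. The rise of 1.10-fold (log2 change 0.13, SE 0.041, adjusted p = 0.011) did not pass with upper-quartile scaling (adjusted p = 0.0896), with total counts alone (log2 change 0.005, adjusted p = 0.926) or with the length trend removed (log2 change 0.03, adjusted p = 0.540). Leaving out competent replicate 3 also ended the call (adjusted p = 0.0677). The log2 ratio of Wnt7b to Wnt7a counts within a sample does not depend on scaling. It was 1.29, 1.18 and 1.24 across competent samples and 0.75, 0.74 and 0.77 across depleted ones, so the ratio was 1.39-fold lower with no overlap (two-sided exact permutation test, p = 0.1, the smallest p that 3 against 3 samples allow, and adjusted p = 0.167 over 5 ratios).

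Wnt9a (ENSMUSG00000000126; chromosome 11, 59306928 to 59333552, plus strand), a ligand studied mostly in skeletal and vascular development, had 14.5, 11.3 and 13.9 CPM across competent samples and 10.45, 11.1 and 13.5 CPM across depleted ones. The groups overlapped and the samples of each spread by 13.1% and 13.8% of their mean. Its log2 change was -0.17 (SE 0.11, adjusted p = 0.194). It passed as a fall with total counts alone (log2 change -0.30, adjusted p = 0.0277), with the length trend removed (log2 change -0.28, adjusted p = 0.0273) and on leaving out competent replicate 2 (adjusted p = 0.0277) or depleted replicate 3 (adjusted p = 0.0394).

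Wnt7a and Wnt7b together made up most of the Wnt ligand mRNA of these cells. Per kilobase of exon, the scale used wherever levels of different genes are compared, they held 77.2% ± 0.27 of the summed level of 19 Wnt genes in competent and 78.8% ± 0.925 in depleted cells (SD, n = 3). The share of Wnt7b went from 46.6% ± 0.856 to 41.2% ± 0.356 and that of Wnt7a from 30.6% ± 0.589 to 37.7% ± 0.614, while Wnt9a held 2.44% ± 0.342 and 2.41% ± 0.286. Wnt10a and Wnt4 took most of the remainder. With the longest transcript as the length in place of merged exons, Wnt7b held 55.6% and 50.1% and Wnt7a 25.3% and 31.8%, in the same order. Of the 19 ligand genes, 7 could be tested. Besides the 3 described, Wnt10a fell from 59.9 ± 2.01 to 48.1 ± 4.24 CPM (1.246-fold, adjusted p = 0.000412) and Wnt11, which often acts outside the canonical branch, fell 1.70-fold from 6.76 ± 0.563 to 4.01 ± 0.644 CPM. Wnt5a also fell (log2 change -1.01, adjusted p = 0.025), on 146 counts over all samples and with overlapping groups. That call was lost with limma-voom (adjusted p = 0.0658) and on leaving out competent replicate 1 or 2 or any depleted replicate (adjusted p = 0.0548 to 0.101). Wnt4 did not pass (log2 change -0.10, adjusted p = 0.278), but was lower with total counts alone (adjusted p = 0.0144) and after removal of the length trend (adjusted p = 0.00338). Wnt3a was at 0 in all samples, and Wnt2 and Wnt9b, the ligands associated with liver endothelium, had 5 and 7 counts over all samples.

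**Figure D1:**
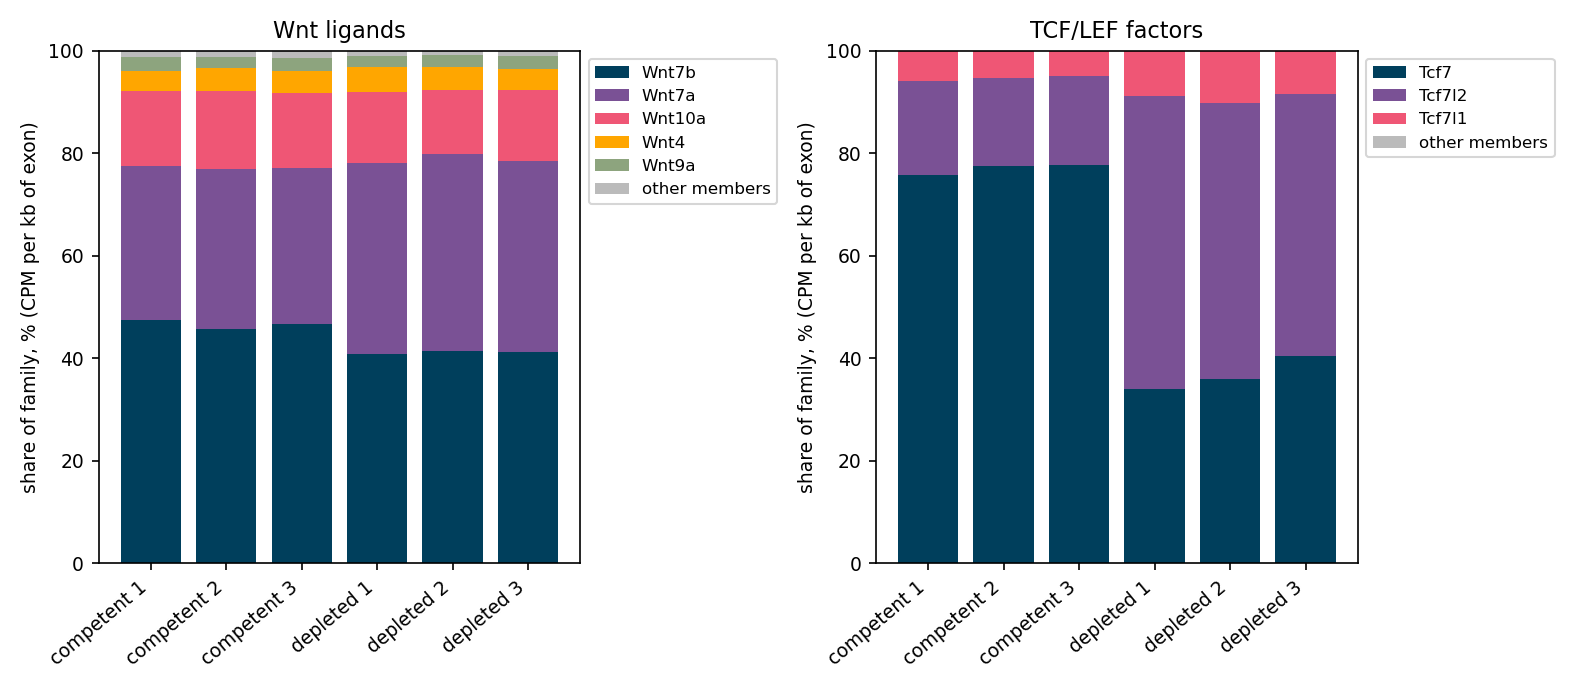
Shares of the Wnt ligand genes (left) and the TCF/LEF factor genes (right) in the summed level of each family, in percent of CPM per kilobase of merged exon, with a stacked bar for each of the 3 competent and 3 depleted samples. Wnt7b and Wnt7a fill at least 76.9% of the ligand bar in every sample, and Tcf7 goes from 75.8% to 77.7% in competent samples to 33.9% to 40.45% in depleted samples, where Tcf7l2 becomes the largest.

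Receptor regulators moved the other way from the genes chosen as readouts, although Rnf43 and Znrf3 are themselves targets of the pathway. Rnf43 (ENSMUSG00000034177; chromosome 11, 87662722 to 87735539, plus strand) encodes a membrane ubiquitin ligase that clears Frizzled receptors from the surface. It had 16.5, 15.8 and 18.3 CPM across competent samples and 34.3, 33.5 and 30.01 CPM across depleted ones, with a wide gap between the groups. The rise was 1.93-fold (log2 change 0.95, SE 0.072, adjusted p = 6.60e-08). Znrf3 (ENSMUSG00000041961; chromosome 11, 5276324 to 5444847, minus strand), the homologous ligase, had 17.02, 14.9 and 16.2 CPM across competent samples and 32.9, 30.3 and 29.3 CPM across depleted ones. Again no depleted sample came near a competent one. Its rise was 1.92-fold (log2 change 0.94, SE 0.068, adjusted p = 4.39e-08). The pair held nearly constant proportions, Rnf43 being 55.8% ± 1.87 of the summed level of both in competent and 56.0% ± 1.005 in depleted cells. With the length trend removed the rises were 1.71-fold and 1.61-fold.

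Lgr4 (ENSMUSG00000050199; chromosome 2, 109917647 to 110014257, plus strand) encodes an R-spondin receptor which, with R-spondin bound, takes those ligases out of action and so sensitises the cell to Wnt. Its level was 23.7, 21.2 and 23.0 CPM across competent samples and 29.9, 34.03 and 28.6 CPM across depleted ones, without overlap. The 1.36-fold rise (log2 change 0.45, SE 0.071, adjusted p = 8.23e-05) was 1.17-fold with the length trend removed (adjusted p = 0.00709). Lgr4 was the main LGR gene, at 80.4% ± 1.74 and 85.1% ± 0.882 of the family's level. Lgr6 had 5.98 ± 0.596 and 5.68 ± 0.188 CPM and did not pass (adjusted p = 0.543), except that with the length trend removed it was lower (log2 change -0.34, adjusted p = 0.0109). Lgr5, a stem cell marker and Wnt target, had 0.66 ± 0.097 and 0.891 ± 0.165 CPM and did not pass (log2 change 0.41, adjusted p = 0.186, and 0.21 after removal of the length trend). The R-spondin genes themselves were at or near 0, with 1, 0, 10 and 1 counts over all samples for Rspo1 to Rspo4.

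**Figure D2:**
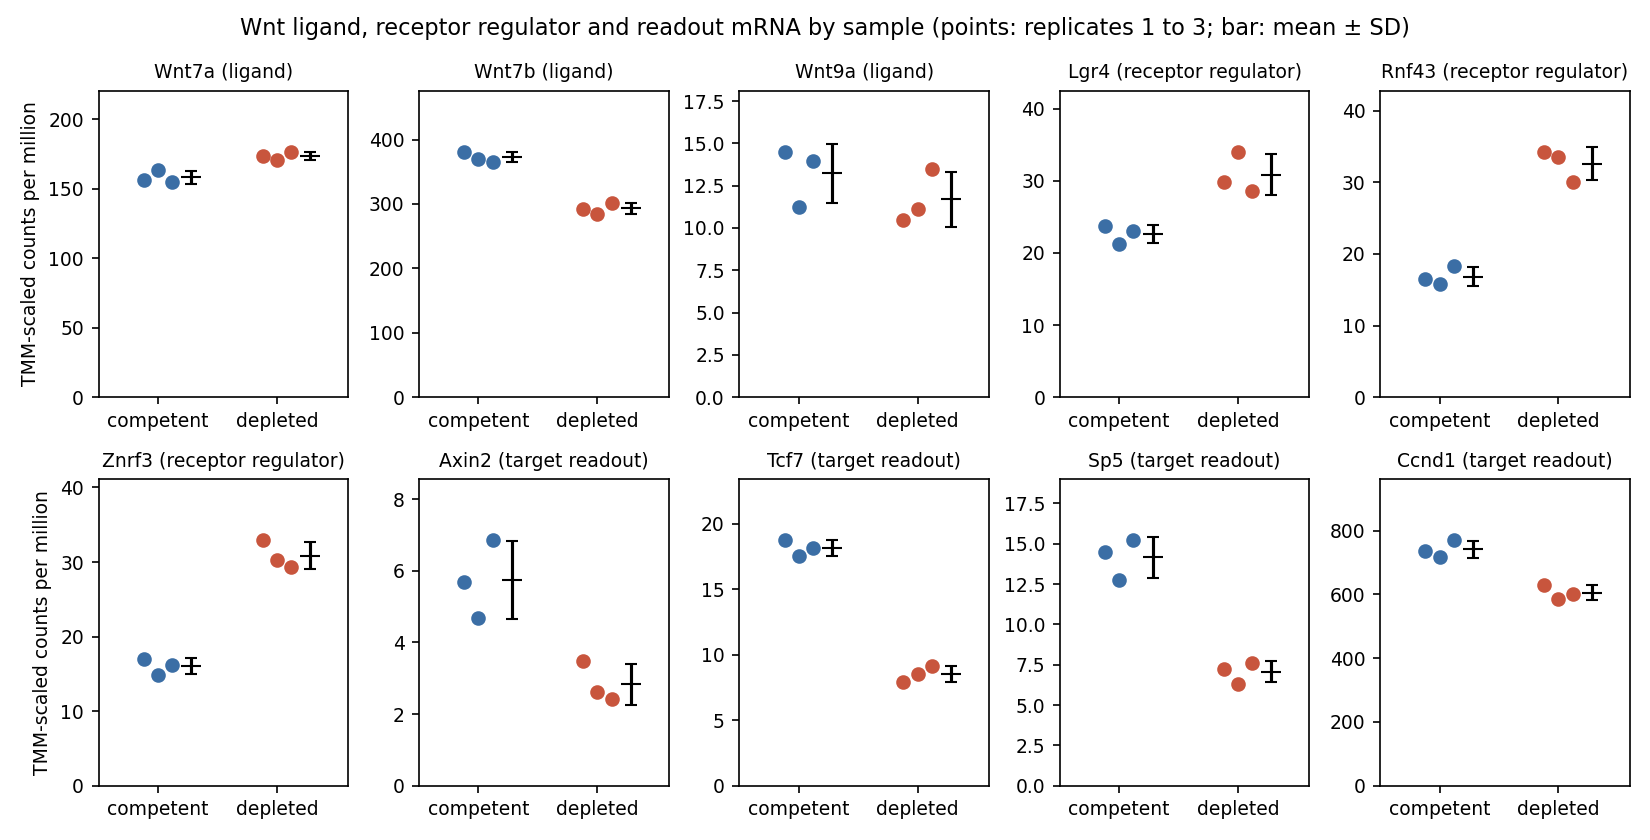
TMM-scaled CPM of the 10 genes in each of the 3 competent (blue) and 3 depleted (red) samples, with a panel and a linear axis from 0 for each gene, and the mean ± SD in black. Rnf43 and Znrf3 are higher and Axin2, Tcf7 and Sp5 lower in all depleted samples, while the groups of Wnt9a overlap.

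All 4 genes chosen as readouts fell. The wider list of canonical targets, which also holds Rnf43 and Znrf3, had 5 higher, 5 lower and 4 that did not pass of 14 tested. Of all tested genes 34.9% were called higher and 34.3% lower. The list's median log2 change was 0.44, against -0.006 over all genes. That median lies between Lgr5 and Apcdd1 (log2 changes 0.41 and 0.47), so it does not describe the genes that were called. Neither of them passed, and their levels were low (Lgr5 0.66 and 0.891 CPM, Apcdd1 0.633 and 0.896 CPM, competent and depleted means). Axin2 (ENSMUSG00000000142; chromosome 11, 108920349 to 108950783, plus strand), whose product rebuilds the destruction complex and which is the most used readout of canonical signalling, had 5.69, 4.67 and 6.85 CPM across competent samples and 3.48, 2.62 and 2.41 CPM across depleted ones. These rest on 165 to 258 and 84 to 88 raw counts a sample, the fewest of the 10 genes, and the samples spread by 19% and 20.2% of the mean. The groups nevertheless did not overlap, and the fall was 2.05-fold (log2 change -1.04, SE 0.17, adjusted p = 0.000116). Axin1, its constitutive counterpart, rose from 92.3 to 116 CPM (log2 change 0.34, and 0.19 with the length trend removed), and the share of Axin2 in the level of both went from 4.14% ± 0.749 to 1.66% ± 0.253.

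Sp5 (ENSMUSG00000075304; chromosome 2, 70474923 to 70477729, plus strand), a zinc-finger repressor that is a direct target of beta-catenin with TCF/LEF in many tissues, had 14.5, 12.8 and 15.2 CPM across competent samples and 7.25, 6.33 and 7.59 CPM across depleted ones. Each depleted sample lay far below the lowest competent one. The fall was 2.01-fold (log2 change -1.005, SE 0.098, adjusted p = 7.99e-07). Tcf7 (ENSMUSG00000000782; chromosome 11, 52252371 to 52283014, minus strand), which encodes the TCF/LEF factor TCF1, had 18.7, 17.5 and 18.1 CPM across competent samples and 7.92, 8.51 and 9.12 CPM across depleted ones. Here too the groups were well apart, and the fall was 2.12-fold (log2 change -1.08, SE 0.077, adjusted p = 3.76e-08). With the length trend removed the falls of Axin2, Sp5 and Tcf7 were 2.32-fold, 1.98-fold and 2.18-fold.

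The fall of Tcf7 came with a change in the makeup of its family. Tcf7l2, which encodes the factor TCF4, had 15.1, 12.95 and 13.5 CPM across competent samples and 44.7, 42.7 and 38.5 CPM across depleted ones, a rise of 3.03-fold (adjusted p = 5.50e-10) with no overlap. Per kilobase, Tcf7 held 77.0% ± 1.06 of the family's level in competent and 36.8% ± 3.34 in depleted cells, and Tcf7l2 17.6% ± 0.631 and 54.1% ± 3.09. With the longest transcript as the length, Tcf7 held 62.8% and 21.9% and Tcf7l2 31.8% and 71.5%, so that the order of both genes differed between the groups on either scale. Tcf7l1, mostly a repressor, rose 1.68-fold from 1.89 ± 0.22 to 3.18 ± 0.422 CPM, and Lef1 had 4 counts over all samples.

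Ccnd1 (ENSMUSG00000070348; chromosome 7, 144929931 to 144939925, minus strand), the cyclin that starts G1 progression and a target of many growth pathways besides Wnt, had 738, 717 and 770 CPM across competent samples and 631, 586 and 601 CPM across depleted ones. All depleted samples were lower. The fall was 1.22-fold (log2 change -0.29, SE 0.046, adjusted p = 7.86e-05), and 1.35-fold with the length trend removed. An opposite-strand gene covers 23.4% of its merged exons. How the counting treated strand is not given in the sources used here, so reads of both may be mixed there. Ccnd1 was 82.0% ± 0.323 of the level of the 3 D cyclins in competent and 84.2% ± 0.372 in depleted cells. Of 10 other G1 cyclins and partners tested, 1 rose, 5 fell and 4 did not pass, where 34.9% of all tested genes were called higher and 34.3% lower. Ccne1 (cyclin E1) fell 2.23-fold, Cdk4, the kinase partner of D cyclins, 1.54-fold and Ccnd2 1.48-fold. Ccne2 fell 1.59-fold with overlapping groups, a call lost without competent replicate 3 (adjusted p = 0.113), depleted replicate 2 (adjusted p = 0.0724) or depleted replicate 3 (adjusted p = 0.0733).

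**Figure D3:**
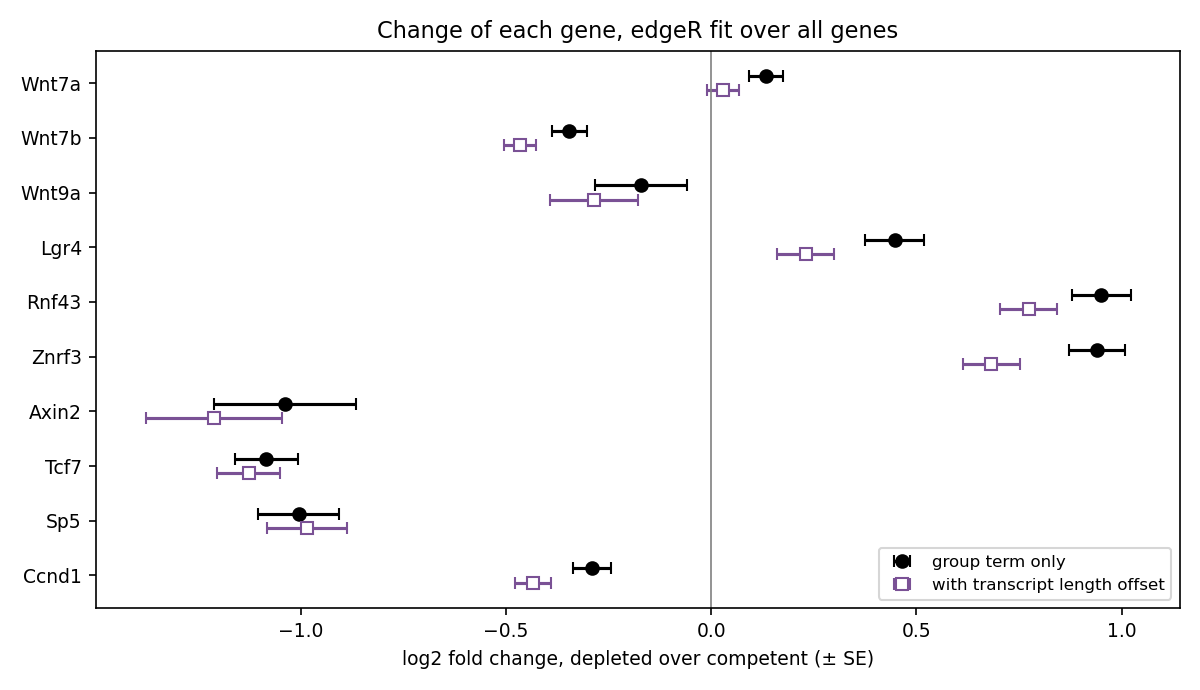
Log2 fold change of each of the 10 genes, depleted over competent, with its standard error, from edgeR with no covariate (filled circles) and with an offset that removes the trend with transcript length (open squares). Wnt7a moves from 0.13 to 0.03. The other genes keep their side of 0 by more than the standard error, which is not a test. Wnt9a did not pass without the offset (edgeR, adjusted p = 0.194).

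The contrast between ligases and readouts was also read within samples, from the same counts and so not as separate evidence. The log2 ratio of Rnf43 to Axin2 counts was 1.53, 1.76 and 1.42 across competent samples and 3.30, 3.68 and 3.64 across depleted ones, a 3.92-fold higher ratio with no overlap. Znrf3 to Axin2 gave 1.58, 1.68 and 1.246 against 3.24, 3.53 and 3.61, a 3.89-fold higher ratio. For both ratios the two-sided exact permutation p was 0.1, the smallest possible, and 0.167 after adjustment over the 5 ratios. By contrast the ratios of Sp5 and of Tcf7 to Axin2 overlapped between the groups. The mean log2 ratio of Sp5 to Axin2 was 1.32 ± 0.15 in competent and 1.33 ± 0.30 in depleted samples (exact permutation p = 1), and that of Tcf7 to Axin2 1.68 ± 0.26 and 1.602 ± 0.38 (exact permutation p = 0.7). With 3 samples a group these tests cannot show that the 3 readouts fell alike.

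Ordered by level per kilobase of merged exon in competent cells, Ccnd1 was highest at 157 ± 5.66 CPM per kilobase (SD, n = 3), followed by Wnt7b (76.0 ± 1.61), Wnt7a (49.9 ± 1.5), Tcf7 (6.90 ± 0.226), Sp5 (6.74 ± 0.601), Wnt9a (3.97 ± 0.52), Lgr4 (3.85 ± 0.217), Rnf43 (2.57 ± 0.197), Znrf3 (2.03 ± 0.136) and Axin2 (1.04 ± 0.198). On this scale Tcf7 and Sp5 overlapped each other, as did Wnt9a and Lgr4, and all other neighbours were separate in all 3 samples. In depleted cells the first 3 kept their places and Axin2 stayed last (0.515 ± 0.104). Between them the order turned over, with Lgr4 (5.24 ± 0.481) and Rnf43 (4.97 ± 0.347) overlapping in the fourth and the fifth place, then Znrf3 (3.91 ± 0.234), Wnt9a (3.51 ± 0.483) and Sp5 (3.36 ± 0.311), each overlapping the next, and Tcf7 (3.24 ± 0.228) in the ninth, which overlapped Sp5 and was above Axin2 in all samples. The middle of the order depends on the length used. Per kilobase of the longest transcript, Lgr4 (4.47 ± 0.252) stood above Wnt9a (3.99 ± 0.522) in competent cells, and Wnt9a overlapped both Lgr4 and Rnf43 (3.90 ± 0.3). In depleted cells Rnf43 (7.56 ± 0.527) then stood above Lgr4 (6.10 ± 0.559) in all samples, and Tcf7 and Sp5 changed places while still overlapping.

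The genes with the most similar profile over the 6 samples were found among 10501 other genes by the root mean square difference of log2 CPM centred on the competent mean. For Axin2 they were Ttc30a1 (0.12), Ndufc1 (0.14) and Kcne3 (0.15), for Tcf7 Tmsb4x (0.02), Atp5g1 (0.02) and Arl6ip1 (0.03), and for Sp5 Sdhaf4 (0.03), Mrpl36 (0.05) and Tm2d3 (0.05). None is on the Wnt lists used here, but the 97 tested genes of those pathway lists are few beside 10501 candidates, so this absence says little. The 6 samples also share the difference between the groups. Candidates were tested genes with a mean log2 CPM of at least 2. Genes without a symbol, and symbols that are Gm with digits or end in Rik, were left out.

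The rest of the pathway was read from lists, of which 139 genes were in the table and 97 could be tested. Of the 87 tested genes other than the 10, 32 rose, 28 fell and 27 did not pass, the median log2 change being 0.04. These are 36.8% and 32.2%, close to the background of 34.9% and 34.3%. With the 10 included, 36 rose and 33 fell, a split that became 28 and 42 with total counts alone and 29 and 48 with the length trend removed. The background moved the same way. Of all 13839 tested genes, 4832 were called higher and 4744 lower in the main fit. These became 3836 and 5980 with total counts alone, and 4099 and 5512 with the length trend removed.

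The lists of ligand processing, Frizzled and LRP genes and extracellular inhibitors are described first. Wls, which escorts Wnt proteins to the cell surface, fell 1.29-fold from 283 ± 4.03 to 220.2 ± 6.54 CPM, the only call among 6 tested genes of ligand processing. Porcn, the enzyme that attaches the lipid, did not pass (log2 change -0.12, adjusted p = 0.169), but was lower with total counts alone (adjusted p = 0.00859), with the length trend removed (adjusted p = 0.0321) and on leaving out depleted replicate 1 (adjusted p = 0.0265). Reck and Adgra2, which form a coreceptor specific to Wnt7 ligands, did not pass either (log2 changes -0.14 and 0.03, and -0.33 and -0.21 with the length trend removed). Among 10 Frizzled and LRP genes there were 5 falls, 1 rise and 4 that did not pass, where 34.3% of all tested genes were called lower. Their median log2 change was -0.36, against -0.006 over all genes. Fzd1 had 50.3, 50.4 and 52.4 CPM across competent samples and 27.7, 27.9 and 27.2 CPM across depleted ones, a fall of 1.85-fold (adjusted p = 2.50e-09) with no overlap. Fzd6 fell 1.62-fold, Fzd2 1.39-fold and Fzd4 1.31-fold (log2 change -0.39, and -0.66 with the length trend removed). Fzd5 was called higher (log2 change 0.24, adjusted p = 0.0065) with overlapping groups, but not with total counts alone (adjusted p = 0.144), and its sign turned with the length trend removed (log2 change -0.03, adjusted p = 0.632). The coreceptor genes Lrp5 and Lrp6 did not pass (log2 changes -0.04 and -0.13, adjusted p = 0.490 and 0.0929). Both were lower with total counts alone (adjusted p = 0.0092 and 0.00145) and after removal of the length trend (log2 changes -0.35 and -0.44, adjusted p = 2.57e-06 and 8.55e-08), and Lrp6 also with upper-quartile scaling (adjusted p = 0.0188), with no filter on low counts (adjusted p = 0.0194) and without competent replicate 1 (adjusted p = 0.00132). Among 5 tested extracellular inhibitors, Tpbg fell 1.67-fold and Kremen1, a receptor for DKK inhibitors, 1.40-fold, and 3 did not pass. An opposite-strand gene covers 23.5% of the exons of Tpbg.

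Cytoplasmic and nuclear genes moved in both directions, where 34.9% of all tested genes were called higher and 34.3% lower. Of 20 tested genes of the Dishevelled and destruction complex list other than Axin2, 12 rose, 6 fell and 2 did not pass. Dvl2, which relays the signal from Frizzled, rose 2.35-fold from 17.2 ± 0.976 to 40.3 ± 0.328 CPM and Apc2, a relative of APC, 2.01-fold, while Amer1, which brings APC to the membrane, fell 1.46-fold (log2 change -0.55, and -0.85 with the length trend removed). Rnf146, the ligase that marks axin for destruction, rose 1.51-fold, but an opposite-strand gene covers 76.8% of its exon length. Of 16 nuclear genes other than Tcf7, 8 rose, 4 fell and 4 did not pass. Ctnnb1, which encodes beta-catenin, had 1646 ± 12.9 and 1372 ± 39.7 CPM and fell (log2 change -0.26, adjusted p = 0.000101, and -0.40 after removal of the length trend). Tle3, a corepressor of TCF/LEF factors, rose 1.81-fold and Bcl9l, a coactivator of beta-catenin, 1.67-fold (log2 changes 0.85 and 0.74, and 0.55 and 0.47 with the length trend removed).

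Of 8 tested canonical targets other than those among the 10, 3 rose, 1 fell and 4 did not pass. For this and the other lists of this paragraph the background was again 34.9% of all tested genes called higher and 34.3% called lower. Sox9, which is also a biliary lineage factor, rose from 88.2 ± 0.773 to 350.4 ± 17.9 CPM (log2 change 1.99), Myc 3.21-fold and Zfp703 2.21-fold. Cd44 fell 1.11-fold (adjusted p = 0.0148), a call lost without depleted replicate 1 (adjusted p = 0.0571). Its log2 change of -0.15 was -0.28 with total counts alone (adjusted p = 9.41e-05) and -0.38 after removal of the length trend (adjusted p = 2.23e-06). The classical targets Nkd1 (0 counts), Notum (3) and Ascl2 (2) were at or near 0 over all 6 samples. Of 6 other genes known as Wnt targets of pericentral hepatocytes, Tbx3 rose 1.90-fold and Glul, which encodes glutamine synthetase, 1.22-fold (log2 change 0.29, and 0.16 with total counts alone), Lhpp fell 1.41-fold and Oat 1.22-fold, and 2 did not pass, while Cyp2e1 had 1 count over all samples. Among 18 tested genes of planar cell polarity and non-canonical reception, 8 rose, 6 fell and 4 did not pass. Dact2, which binds Dishevelled, rose 3.53-fold from 5.14 ± 0.669 to 18.2 ± 1.11 CPM, Prickle2 2.69-fold, the Wnt receptor gene Ror1 1.96-fold and Prickle3 1.87-fold.

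**Figure D4:**
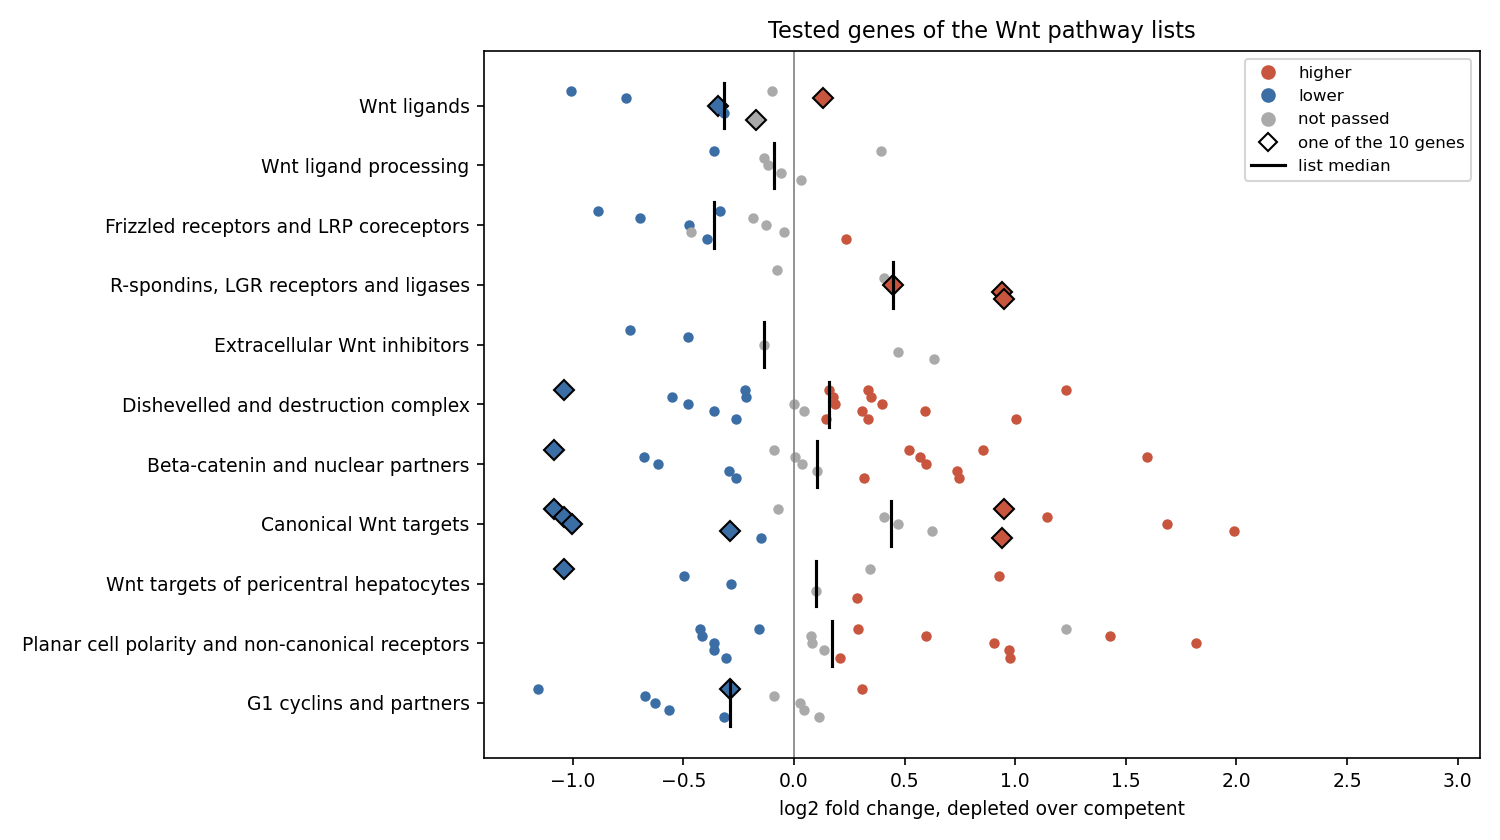
Log2 fold change, depleted over competent, of every tested gene of 11 lists of Wnt pathway and G1 genes, coloured by whether it was called higher, called lower or did not pass, with diamonds for the 10 genes and a vertical bar at each list's median. The Frizzled and LRP list has its median at -0.36, and the canonical targets run from -1.08 for Tcf7 to 1.99 for Sox9.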

How the data were processed

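Strand-specific poly-A libraries (NEBNext Ultra II) were prepared from 500 ng of RNA, per the labels' protocols. Reads were handled with STAR 2.7.1a, cutadapt 1.16, featureCounts, DESeq2 1.34.0, FastQC 0.11.9 and MultiQC 1.3, with build GRCm38, per the submitters' processing notes, which give no roles. The sources used here give neither annotation nor strand setting. The authors' deposited values are raw counts per gene, and 0 columns belonged to other samples. Coordinates and lengths came from GENCODE M21 (32009 identifiers matched) and 31976 genes had a symbol.

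The main test on the counts was edgeR 4.0.16 (R 4.3.3): filterByExpr, TMM, quasi-likelihood F-test (two-sided), the group as the only term, Benjamini-Hochberg over 13839 genes, threshold 0.05. CPM use TMM-adjusted totals, and fold changes are depleted over competent. The length trend was removed with a loess offset per library on the longest transcript (span 0.3). Within groups the chi-square per degree of freedom between samples was 4.46 to 7.70, more than counting error alone gives, so no library was taken as a copy of another. It cannot show that replicates were separate cultures or mice. Each sample was counted once. The code was tested on simulated counts. Alternatives were other scalings, DESeq2 1.42.0, limma-voom (limma 3.58.1), other filters, a replicate block, length, left-out samples and a threshold of 0.01.

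Members and lists were chosen with earlier results of these data known. Genes named from each list were up to 4 past the threshold with the largest change and a mean log2 CPM of at least 0, or the 2 highest expressed where none passed, and any other was chosen after its values were seen. The family shares and levels per longest transcript were added after the data were seen. Tle5 and Tiki1 were not analysed here.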

Additional observations from a re-analysis of the deposited data

How the results depend on the processing

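Over the alternatives run, called genes numbered 8317 to 9816 against 9576, and of the 10 genes 3 or 4 rose and 5 or 6 fell, as Wnt7a lost its call or Wnt9a gained one. The values of both stand beside their results. The other 8 genes kept their direction and their call throughout, with log2 changes of -1.21 to -0.89 for Axin2, -1.21 to -1.04 for Tcf7, -1.13 to -0.93 for Sp5, 0.77 to 1.01 for Rnf43, 0.68 to 0.98 for Znrf3, 0.23 to 0.50 for Lgr4, -0.47 to -0.33 for Wnt7b and -0.43 to -0.27 for Ccnd1. Of the tested pathway genes, 28 to 37 rose and 28 to 49 fell, against 36 and 33. The 49 came with the length offset and replicate block together, and the lowest count of falls with the threshold of 0.01. The background moved as well. With the offset and block together, 4121 of all 13839 tested genes were called higher and 5530 lower, against 4832 and 4744 in the main fit. With the replicate number as a block, 9526 genes were called, and it changed no call of the 10. Same-numbered samples did not deviate together (Pearson r across genes -0.03, 0.01 and -0.02), and no sample correlated best with its own number. Whether same-numbered samples came from the same mouse or culture is not in the labels, and these correlations cannot exclude it. Depth limits Axin2 most, at 84 counts in its lowest sample. Among the other named genes the sign turned for Fzd5 with the length offset, without and with the block (log2 changes -0.0302 and -0.0322), and for Adgra2 with upper-quartile scaling (-0.0177), total counts alone (-0.10), and the length offset without and with the block (-0.21 in both; adjusted p = 0.0269 with it). Leaving out 1 sample at a time, the log2 change ran from -0.0383 to 0.107 for Adgra2, from -0.35 to 0.000365 for Reck and from -0.0893 to 3.87e-05 for Lrp5. The cause was not tested.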
